A study of Mus musculus with 16 samples.

Results

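The cells described here are azurophil-high neutrophil precursors of the marrow, taken as CD45+ marrow cells in which Elane, Mpo and Prtn3 together made up at least 1% of the unique molecular identifiers (UMIs, counted RNA molecules) and F13a1 and Ms4a6c together had at most 1 UMI. Cells with more than 200 and fewer than 6000 detected genes and at most 10% mitochondrial UMIs were eligible. The rule found 1191 cells among 31191 eligible CD45+ marrow cells, in a series of 77636 cell barcodes. The cells were thus selected on measured values of these 5 genes, which were not tested. Levels of Elane, Mpo and Prtn3 are given as a description.

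Single-cell RNA was counted in marrow of female BALB/c mice, from non-tumor-bearing untreated animals (WT, labelled ctrl) and from animals carrying 2208L, a transplanted Trp53-null triple-negative mammary tumor, that received vehicle or IACS-70654, an inhibitor of the CBP/P300 bromodomain. Treatment lasted 7 days by the series record, and the description of the marrow experiment elsewhere in the study gives a shorter course. Each of the 3 groups had 2 libraries of Ter119-depleted CD45+ marrow and 2 of lineage-negative c-Kit+ marrow, the latter enriched for stem and progenitor cells. Cells of 3 mice were pooled, and the record does not say whether both libraries of a group came from 1 pool, so p-values may measure only technical spread between libraries. WT mice differed from vehicle mice in both tumor and treatment, and these cannot be told apart in that comparison.

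Neutrophils arise in marrow from granulocyte-monocyte progenitors and fill their granules in a fixed order. Azurophil granules, loaded first by dividing promyelocyte-stage cells, carry myeloperoxidase (Mpo) and the serine proteases neutrophil elastase (Elane), proteinase 3 (Prtn3) and cathepsin G (Ctsg). Specific granules follow with cathelicidin (Camp), neutrophilic granule protein (Ngp), lactoferrin (Ltf) and lipocalin 2 (Lcn2), and gelatinase granules and the calgranulins S100a8 and S100a9 accumulate as cells approach and pass their last division. CBP and P300 acetylate histones at enhancers and promoters, and their bromodomain binds acetylated lysine.

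The precursors numbered 93 and 125 in the WT libraries, 143 and 144 under vehicle and 305 and 381 under IACS-70654. In median they held 11808 to 16255 UMIs and 3067 to 3729 genes per cell, and the deepest were those of the IACS-70654 libraries. Their median mitochondrial share also moved with the groups. It was 4.48% and 4.27% in WT, 4.87% and 5.53% under vehicle and 3.13% and 2.97% under IACS-70654. Total UMIs per CD45+ library ran from 27816638 to 54510172. Libraries of 1 sort had 0 barcodes in common, and over the 36 pairs of a CD45+ and a c-Kit+ library 263 barcodes were shared, at most 14 in a pair. A further 640 azurophil-high cells were left out by the F13a1 and Ms4a6c limit, and 12 by the limit on genes. The first limit, in raw UMIs and not scaled to depth, fell unequally on the groups. It took 31.1% and 28.6% of azurophil-high cells in WT, 21.9% and 26.5% under vehicle and 38.4% and 41.1% under IACS-70654. In the c-Kit+ libraries it took 56.4% to 63.2%.

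The azurophil genes of the rule lie on chromosomes 10 and 11 of GRCm38, Prtn3 at chr10:79874476-79883174 and Elane at chr10:79886247-79888215, next to it on the same strand, and Mpo at chr11:87793581-87804413. In normalised UMI counts (CPM, the summed UMIs of each library scaled to the same total), Elane stood at 8622 and 8881 in WT, 7094 and 7115 under vehicle and 11020 and 10820 under IACS-70654. Mpo was 5992 and 5657 CPM in WT, 4703 and 5429 under vehicle and 5632 and 5642 under IACS-70654, lowest under vehicle. Prtn3 was 10280 and 10180 CPM in WT, 12660 and 13000 under vehicle and 12070 and 12290 under IACS-70654. The median azurophil share of a cell was 2.42% to 2.85% in the 6 libraries.

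The label of early neutrophil precursors was checked against markers of other lineages. Summed over all precursors, Hbb-bt of the red lineage had 0 UMIs. The 9 erythroid markers summed to 1.24 to 4.53 CPM, and the 8 T and NK markers to 8.62 to 24.9 CPM. The 12 monocyte markers summed to 172 to 194 CPM in the 6 libraries, and the 9 B-lineage markers to 42.4 to 138 CPM, with the highest value in WT replicate 2. The 7 eosinophil markers, of which Ear1 had 0 UMIs, summed to 47.0 CPM in WT replicate 2, mostly from Prg2, Prg3 and Epx, and to 2.67 to 4.34 CPM in the other libraries. The 7 basophil and mast markers summed to 46.4 CPM in WT replicate 2 and to 12.1 to 32.1 CPM in the others, mostly from Mcpt8. WT replicate 2 thus had the highest sums of B-lineage, eosinophil and basophil and mast markers. At the threshold, the 39 cells with an azurophil share of 1% to 1.1% had a median specific granule share of 4.13%, and the 38 cells at 0.9% to 1%, just outside, had 4.63%. Cells just inside and just outside the threshold thus carried much specific granule RNA alike. The 330 precursors with 1 UMI of F13a1 or Ms4a6c had a median azurophil share of 2.90%, and the 141 cells with 2 such UMIs, left out, had 3.04%.

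The precursors spanned a gradient from azurophil to specific granule RNA. Of the 343 cells with an azurophil share of 1% to 2%, 82.2% had at least 1% of their UMIs in Camp, Ngp, Ltf and Lcn2, against 20.9% of the 707 cells at 2% to 4% and 1.42% of the 141 cells at 4% or more. In all, 432 of the precursors passed that 1% and are called specific granule-positive here, and 759 did not. The specific granule-positive cells had a median of 7 UMIs of Mki67 and Top2a, genes of dividing cells, and the others had 3.

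Precursors were more frequent after IACS-70654. They made up 2.03% (95% exact binomial interval 1.64 to 2.48) and 2.85% (2.37 to 3.38) of eligible cells in the WT libraries, 2.80% (2.36 to 3.29) and 2.37% (2.00 to 2.78) under vehicle, and 6.27% (5.60 to 6.99) and 6.19% (5.60 to 6.82) under IACS-70654. The intervals cover counting error only. Both IACS-70654 libraries lay above all 4 others, whereas WT and vehicle overlapped. On the log2 scale the ratio of mean shares was 1.27 against vehicle and 1.35 against WT, each at exact permutation p = 0.3333 over n = 2 libraries per group, which is the smallest p this design can give. Since the azurophil threshold sets this share, it is a description. Among B cells, taken as cells with at least 3 UMIs of Cd79a and Cd79b, which should lack azurophil RNA, the median azurophil share was 0.0217% to 0.0331% in the 6 libraries. B cells were shallower, with medians of 3080 to 5812 UMIs. Some cells with B-cell genes passed the 1% azurophil threshold themselves, 1 of 688 and 4 of 698 in WT, 5 of 165 and 2 of 179 under vehicle and 7 of 59 and 8 of 112 under IACS-70654, at a median of 11174 to 28278 UMIs. Such cells could make up at most 7 of the 305 and 8 of the 381 precursors under IACS-70654. These counts set no limit on doublets of precursors with cells other than B cells. Values per B cell in later paragraphs leave out B cells with 1% or more azurophil RNA. In IACS-70654 replicate 1 the B cells left still held 3.17 UMIs of F13a1 and 2.69 of Elane per cell. The other libraries held at most 0.51 and 0.61. B cells of IACS-70654 replicate 2 held 3.53 UMIs of Mcpt8, against at most 0.32 elsewhere. B cells under IACS-70654 are thus no clean background, which limits each comparison with them below.

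The number of B cells moved with the groups, at 688 and 698 cells in WT, 165 and 179 under vehicle and 59 and 112 under IACS-70654. Over eligible cells without lymphoid genes, precursors made up 2.99% and 4.07% in WT, 3.45% and 2.86% under vehicle and 6.56% and 6.53% under IACS-70654. IACS-70654 still stood above the other groups, with a log2 ratio of 0.89 to WT. Depth moved with the groups as well. With cells thinned to 5000 UMIs, the log2 ratio of IACS-70654 to WT was 0.92 in place of 1.35. That setting also dropped cells under 5000 UMIs from the eligible cells, whose median was 4113 UMIs in WT replicate 1 and 6534 in IACS-70654 replicate 1. The shares became 5.71% and 7.27% in WT, 5.63% and 4.81% under vehicle and 12.4% and 12.03% under IACS-70654. Equal depth and the changed set of eligible cells cannot be told apart in these values.

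The same rule gave a different order in lineage-negative c-Kit+ marrow. It found 3457 of 28155 eligible cells there, or 7.02% and 6.12% in WT, 18.3% and 17.3% under vehicle and 11.1% and 11.03% under IACS-70654. The log2 ratio of mean shares of IACS-70654 to vehicle was -0.68 in c-Kit+ marrow and 1.27 in CD45+ marrow. Every IACS-70654 library stood below every vehicle library in the c-Kit+ sort and above it in the CD45+ sort. The difference between the sorts was not tested. These are shares of sorted cells, so that the number of precursors per mouse is not measured.

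**Figure D1:**
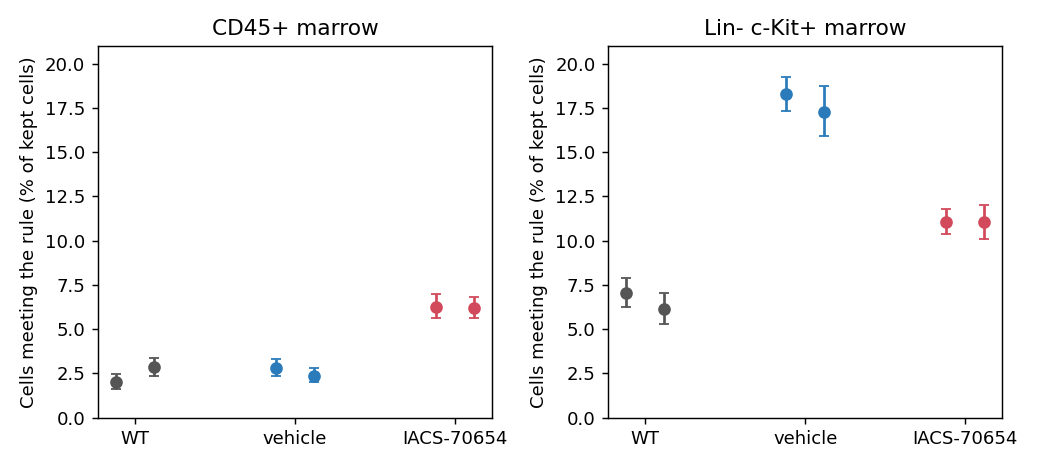
Cells meeting the azurophil rule as a percentage of eligible cells, 1 point per library with its 95% exact binomial interval, in CD45+ marrow (left) and lineage-negative c-Kit+ marrow (right) of WT, vehicle and IACS-70654 mice. Under IACS-70654 the points stand highest in CD45+ marrow, at 6.19% and 6.27%, and between WT and vehicle in c-Kit+ marrow.

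After IACS-70654 a smaller share of the precursors was specific granule-positive. Specific granule-positive cells made up 43.0% and 43.2% of precursors in WT, 49.7% and 43.8% under vehicle, and 27.5% and 31.5% under IACS-70654. The vehicle mean was 3.595 points above WT, and 0.645 points above it without vehicle replicate 1. The mean difference between IACS-70654 and vehicle was -17.2 percentage points, with an SD between libraries of the same group of 2.90 points (n = 2 per group, exact permutation p = 0.3333). As a share of all eligible CD45+ cells, specific granule-negative precursors stood at 1.16% and 1.62% in WT, 1.41% and 1.33% under vehicle and 4.54% and 4.24% under IACS-70654, while specific granule-positive ones stood at 0.874% and 1.23%, 1.39% and 1.04%, and 1.73% and 1.95%.

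Precursors also differed in cell cycle phase. After thinning each cell to 5000 UMIs, 29.4% and 27.5% of the IACS-70654 precursors scored as G2/M, against 19.3% and 16.3% under vehicle and 11.2% and 16.7% in WT. S phase was called in 48.2% and 45.8% under IACS-70654, 55.7% and 60.3% under vehicle and 56.2% and 55.8% in WT. The G2/M difference between IACS-70654 and vehicle was 10.7 points and the S difference -11.01 points, each with no overlap of the libraries and exact permutation p = 0.3333 (n = 2 per group). Among specific granule-negative precursors alone, G2/M calls were 25.7% and 23.5% under IACS-70654 and 7.14% and 6.25% under vehicle. Among the cycling cells with under 1% azurophil and at least 1% specific granule RNA, described further on, they were 61.3% and 60.8% under IACS-70654 and 61.0% and 67.0% under vehicle. Those values overlapped between the groups. These cells were chosen for at least 2 UMIs of Mki67 and Top2a, genes of dividing cells, so their G2/M share is no check on that of the precursors. Phase calls rest on summed scores of cell cycle genes and do not measure division directly.

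**Figure D2:**
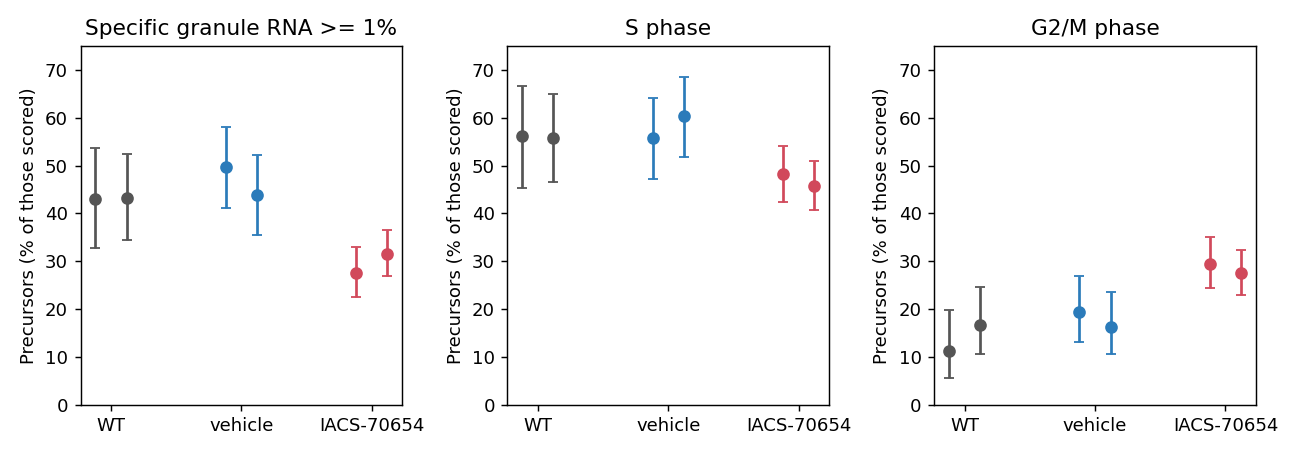
Percentage of precursors with at least 1% specific granule RNA (left) and of thinned precursors called in S (middle) and G2/M (right), 1 point per library with its 95% exact binomial interval. The IACS-70654 libraries stand lowest in the first 2 panels and highest in the third.

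UMIs were summed over the precursors of each library and compared by the quasi-likelihood test of edgeR, with p-values adjusted after Benjamini-Hochberg. A gene was called where its adjusted p was below 0.01 and its log2 change exceeded 0.5 in either direction. Between IACS-70654 and vehicle, 152 of 9354 genes tested were higher (1.62%) and 331 were lower (3.54%). Between IACS-70654 and WT, 221 were higher (2.36%) and 347 lower (3.71%). Between vehicle and WT, 113 were higher (1.21%) and 81 lower (0.866%). With library totals in place of TMM scaling, the split was 187 higher to 240 lower for IACS-70654 against vehicle and 77 to 86 for vehicle against WT. With DESeq2 the counts in either direction were 161 for IACS-70654 against vehicle, 228 against WT and 80 for vehicle against WT, in place of 483, 568 and 194. After thinning they were 305, 310 and 102. Without WT replicate 2, the counts against WT were 311 for IACS-70654 and 91 for vehicle, and without vehicle replicate 2 that of IACS-70654 against vehicle was 315, or 317 without vehicle replicate 1. The comparisons share libraries and are not independent of one another. Counts of called genes in the lists that follow are to be read beside the shares of all genes tested given above.

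Among named genes averaging at least 50 CPM, Cst7, Fcnb, Napsa and Aoah fell most after IACS-70654. Fcnb, which encodes ficolin-B, a lectin of the neutrophil series, stood at 1504 and 1348 CPM in WT, 1266 and 1092 under vehicle and 301 and 317 under IACS-70654. Against vehicle its log2 change was -1.995 (SE 0.079, edgeR adjusted p = 2.5e-23), and the libraries did not overlap. Cst7, which encodes cystatin F, an inhibitor of granule cathepsins, was 181 and 190 CPM in WT, 148 and 151 under vehicle and 35.7 and 34.0 under IACS-70654, a log2 change of -2.16 (SE 0.11, edgeR adjusted p = 7.6e-20). Napsa, encoding the aspartic protease napsin A, fell from 231 and 228 to 78.3 and 82.4 CPM, a log2 change of -1.57, and stood above B cells per cell in 5 of 6 libraries. Aoah, encoding acyloxyacyl hydrolase, which inactivates lipopolysaccharide, fell from 130 and 113 to 45.7 and 48.3 CPM. In all 4 genes both IACS-70654 libraries lay below both WT and both vehicle libraries. Tex14, Ica1, Cacnb2, Fkbp11, Tmem216 and Vat1 completed the 10 largest falls, with log2 changes of -1.15 to -1.38.

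The falls of Fcnb and Cst7 were present on both sides of the specific granule threshold. Fcnb changed by -1.79 in specific granule-negative precursors and by -1.77 in positive ones, and Cst7 by -2.22 and -3.29, all called. In the c-Kit+ libraries, which the choice of cells did not use, Fcnb changed by -2.33 and Cst7 by -1.63 between IACS-70654 and vehicle, both called. B cells of the CD45+ libraries held 0.0218 to 0.0452 UMIs of Cst7 per cell against 0.549 to 2.68 in precursors.

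Of the 13 tested azurophil and granule-processing genes outside the rule, 3 fell between IACS-70654 and vehicle, 10 were not called, and the median log2 change was -0.09, beside 0.01 over all genes tested. The 3 were Cst7, Cd63, a tetraspanin of granule membranes, which changed by -0.74 from 889 and 860 to 539 and 551 CPM, and Nkg7, a granule membrane protein, which changed by -0.60. Ctsg, an azurophil protease outside the rule, was 3450 and 3882 CPM under vehicle and 3977 and 3986 under IACS-70654 and was not called.

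Specific and gelatinase granule genes moved in both directions. Of 22 tested, 9 fell, 3 rose and 10 were not called between IACS-70654 and vehicle, with a median of -0.34. Ngp was 7456 and 6167 CPM under vehicle and 3197 and 3212 under IACS-70654, a log2 change of -1.15. Camp was 13200 and 10240 CPM under vehicle and 5975 and 5886 under IACS-70654, a log2 change of -1.05. The share of specific granule-positive cells moved with both genes. Camp and Ngp themselves decide which cells are specific granule-positive, so their changes within each side of that threshold are not read. In specific granule-negative precursors, chosen for little such RNA, Camp stood at 8.40 to 15.7 UMIs per cell, below the 15.0 to 34.6 UMIs of B cells of the same library in each of the 6 libraries.

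The 3 genes of that list that rose were Anxa1, Chil3 and Olfm4. Anxa1, which encodes the calcium-dependent phospholipid-binding protein annexin A1, stood at 281 and 277 CPM in WT, 591 and 498 under vehicle and 1607 and 1490 under IACS-70654. Its log2 change was 1.44 against vehicle (SE 0.077, edgeR adjusted p = 1.24e-18) and 1.01 for vehicle against WT. In specific granule-negative precursors it stood at 2.60 and 2.32 UMIs per cell under vehicle, below the 2.99 and 3.06 of B cells, and at 20.4 and 19.5 under IACS-70654, above the 5.54 and 5.49 of B cells. The fitted change of 2.73 there thus starts from a level not above B cells. Chil3, encoding the chitinase-like protein Ym1, was 196 and 113 CPM under vehicle and 516 and 491 under IACS-70654, a log2 change of 1.63, and in specific granule-negative precursors it stood above B cells under IACS-70654 but not under vehicle. Olfm4, encoding olfactomedin 4 of specific granules, was 113 and 79.3 CPM in WT, 39.4 and 54.0 under vehicle and 79.8 and 83.1 under IACS-70654.

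S100a8, a subunit of calprotectin, rose. It stood at 36770 and 35450 CPM in WT, 53370 and 45270 under vehicle and 72180 and 74590 under IACS-70654, a log2 change of 0.51 over vehicle. In specific granule-negative precursors it changed by 1.42, from 301 and 257 to 889 and 947 UMIs per cell, and B cells held 98.0 to 171 UMIs in those 4 libraries. In specific granule-positive ones it changed by 0.42 and was not called, and the call was lost in 5 of the 19 alternatives tried. In c-Kit+ libraries the same rule gave S100a8 at 496 and 578 CPM under vehicle and 2993 and 3520 under IACS-70654, a called log2 change of 2.56. S100a9, the other subunit, was not called between IACS-70654 and vehicle in CD45+ precursors. Not scaled to depth, it stood there at 1172 and 1009 UMIs per cell under vehicle and 1338 and 1403 under IACS-70654. Of the 20 tested mature neutrophil genes, 3 rose (S100a8, Wfdc17 and Stfa2l1) and 2 fell (Wfdc21 and Ly6g). Wfdc17 changed by 0.54, and by -0.31 with the top 10% of doublet scores left out. Under IACS-70654 it stood at 1.96 and 1.98 UMIs per precursor, below the 5.44 and 3.38 of B cells. Ly6g fell from 84.5 and 87.8 to 50.4 and 47.8 CPM, a log2 change of -0.87, and its 0.80 and 0.77 UMIs per precursor under IACS-70654 were below the 0.92 and 1.22 of B cells.

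**Figure D3:**
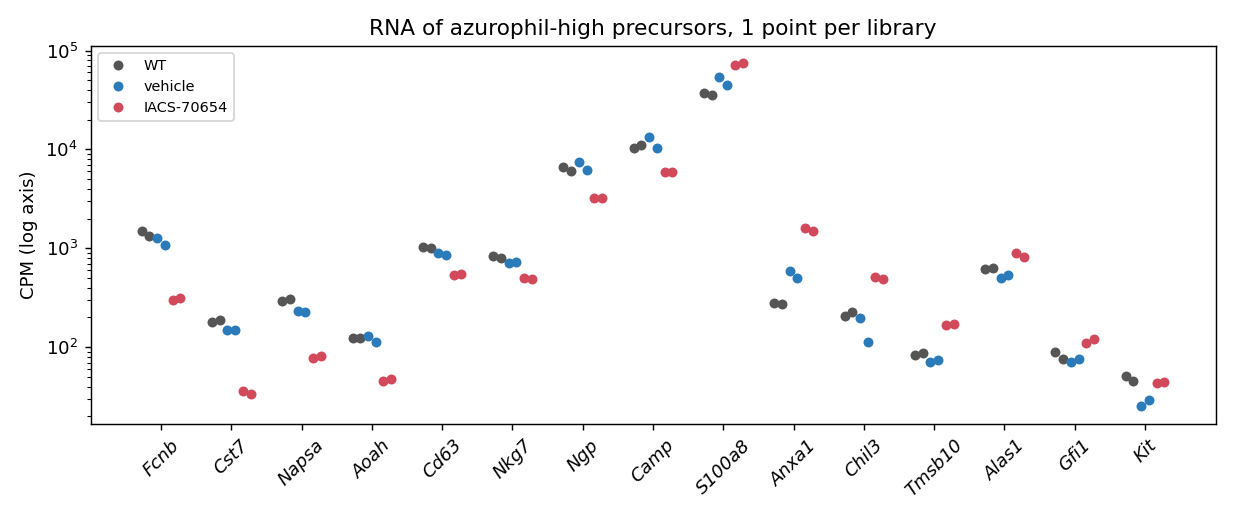
CPM of 15 genes in the precursors on a log axis, 1 point per library, with WT in grey, vehicle in blue and IACS-70654 in red. Fcnb, Cst7, Napsa, Aoah, Cd63, Nkg7, Ngp and Camp stand lowest under IACS-70654, and S100a8, Anxa1, Chil3, Tmsb10, Alas1 and Gfi1 stand highest.

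The stefins, small intracellular inhibitors of cysteine proteases, held 4 of the 10 largest rises among genes averaging at least 50 CPM. That average covered all 6 libraries, so a gene high only under IACS-70654 could pass it, and the count is a description. Of 9 tested stefin and cystatin genes, 6 rose, 1 fell (Cst7) and 2 were not called between IACS-70654 and vehicle. The 6 that rose belong to a family of closely related copies, so reads may be split or lost among them and the level of any 1 gene is uncertain. The study named Cstdc5, Cstdc6, Stfa2 and Stfa3 from these libraries, so that their direction is not independent evidence. Promoter windows from RefSeq on GRCm38.p6 were at hand for 5 of the 6 and are shown because these copies moved together. Each line holds 70 bases before and 50 after the annotated start, and capitals mark a run of 13 bases shared by all 5. Another run of the same length, after the start or close to it, is also shared and is left in lower case.
Cstdc5, chr16:36367521-36367640, minus strand: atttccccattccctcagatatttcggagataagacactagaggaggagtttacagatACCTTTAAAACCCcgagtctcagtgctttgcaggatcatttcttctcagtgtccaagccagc
Stfa3, chr16:36455343-36455462, minus strand: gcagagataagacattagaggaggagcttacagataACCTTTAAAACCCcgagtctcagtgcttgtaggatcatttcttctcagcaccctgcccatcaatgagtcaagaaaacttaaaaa
Stfa2l1, chr16:36156741-36156860, plus strand: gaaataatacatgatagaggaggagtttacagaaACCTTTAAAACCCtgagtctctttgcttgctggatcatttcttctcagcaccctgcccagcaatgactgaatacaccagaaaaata
Cstdc4, chr16:36184142-36184261, plus strand: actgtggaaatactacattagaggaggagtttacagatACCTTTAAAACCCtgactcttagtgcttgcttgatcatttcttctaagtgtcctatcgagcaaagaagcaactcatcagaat
Stfa2, chr16:36408314-36408433, minus strand: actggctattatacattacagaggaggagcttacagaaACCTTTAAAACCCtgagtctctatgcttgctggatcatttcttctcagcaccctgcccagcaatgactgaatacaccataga

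The windows were 57.9% to 86.3% identical in pairs. The run ACCTTTAAAACCC began 32 to 36 bases before the annotated start in 4 of them and 12 bases before it in Cstdc5. On either strand it was found in 0.0274% of 32851 promoter windows of 300 bases. Of all the 120-base windows, 8 held it, and the other 3 belonged to Stfa1, Cstdc3 and Gm7260.

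Cstdc5 stood at 89.8 and 66.2 CPM in WT, 95.5 and 168 under vehicle and 1189 and 1088 under IACS-70654, a log2 change of 3.06 over vehicle (SE 0.11, edgeR adjusted p = 2.98e-25). Per cell, specific granule-positive precursors held 51.3 and 41.3 UMIs under IACS-70654, specific granule-negative ones 6.56 and 6.65, and B cells of the same libraries 13.04 and 9.5. The specific granule-negative precursors under IACS-70654 were thus below B cells of the same libraries. B cells themselves held 0.658 and 1.26 UMIs in WT and 0.875 and 1.27 under vehicle. The source of the B-cell level was not tested, so the rise in specific granule-negative precursors is not read as their own expression. Stfa3 changed by 1.74, Stfa2l1 by 1.73, Cstdc4 by 1.49, Cstdc6 by 2.05 and Stfa2 by 0.60. With the cells of the top 10% of doublet scores left out, Stfa2 changed by -0.25. For Stfa3, Stfa2l1 and Cstdc6, B cells held more UMIs per cell than precursors as a whole in both IACS-70654 libraries, and for Stfa2 and Cstdc4 in IACS-70654 replicate 2. In the c-Kit+ libraries, cells under the same rule had 0 to 0.112 CPM of Cstdc5.

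**Figure D4:**
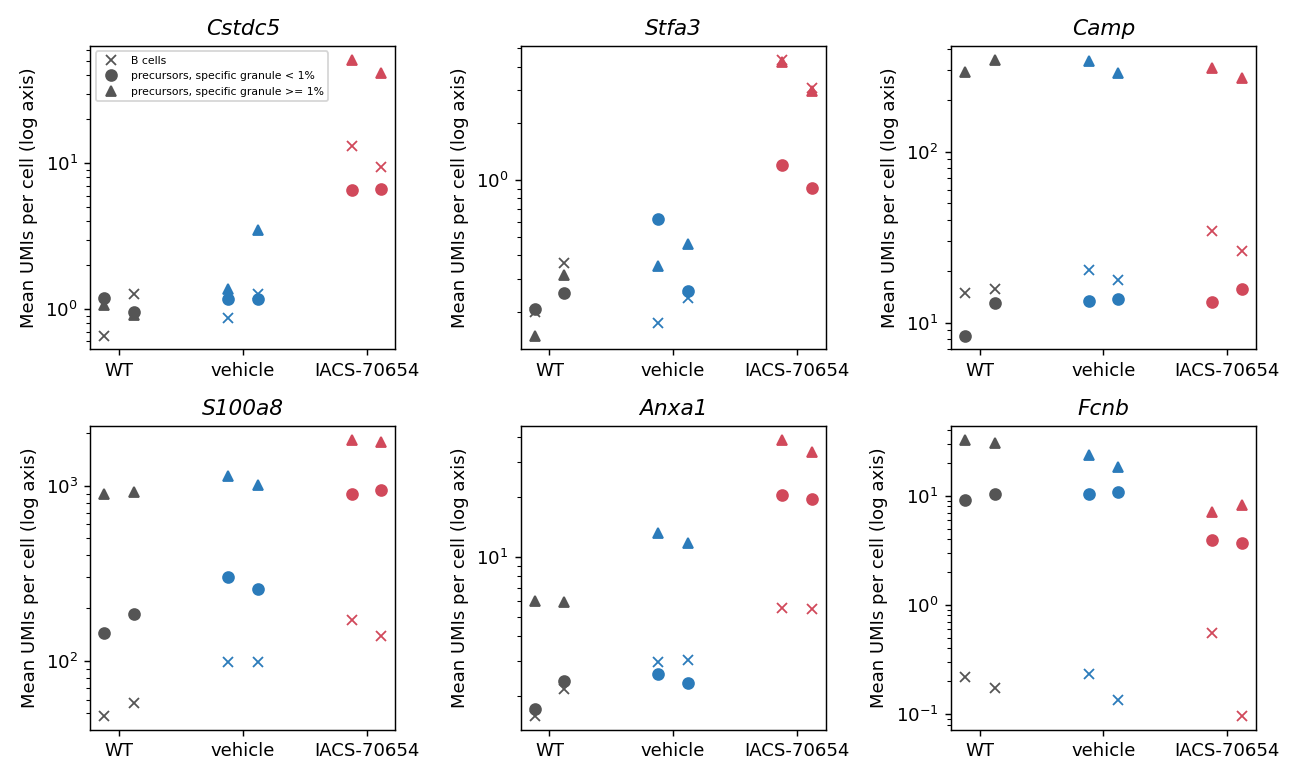
Mean UMIs per cell on a log axis for 6 genes in B cells (crosses), specific granule-negative precursors (circles) and specific granule-positive precursors (triangles), 1 mark per library. Camp and Cstdc5 in specific granule-negative precursors of IACS-70654 lie below the B cells, whereas S100a8, Anxa1 and Fcnb lie above them.

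Among 26 tested transcription factors of granulocyte fate, 2 rose and 5 fell between IACS-70654 and vehicle. Over all genes tested, 1.62% rose and 3.54% fell. Gfi1, a repressor needed for neutrophil differentiation, was 70.9 and 76.0 CPM under vehicle and 112 and 121 under IACS-70654, a log2 change of 0.61, and Cebpg changed by 0.83. The call of Cebpg was lost in 12 of 19 alternatives, and it stood above B cells per cell in 2 of 6 libraries. The immediate-early factors Jun, Junb and Egr1 changed by -0.65, -0.59 and -1.05, and the progenitor factor Sox4 by -1.53. Sox4 had fewer UMIs per precursor than per B cell in each library, where B cells held 0.558 to 1.78. At such a B-cell level, the comparison cannot show whether Sox4 in precursors was background. Whether the B-cell level of Cebpg was background was not tested either. Hoxa9, also a progenitor factor, was 8.40 and 3.21 CPM under vehicle and 0 and 0.65 under IACS-70654. Cebpe, the factor of the specific granule program, was not called, at 427 to 493 CPM in the 6 libraries, nor were Cebpa and Spi1.

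Kit, the stem cell factor receptor, was 51.7 and 45.9 CPM in WT, 25.2 and 29.4 under vehicle and 43.2 and 44.9 under IACS-70654. It changed by -0.78 for vehicle against WT and by 0.63 for IACS-70654 against vehicle. The first call was lost in 10 and the second in 9 of 19 alternatives. Kit was the only 1 of 19 tested receptor genes called in the latter comparison. Csf3r, the G-CSF receptor, was at most 129 CPM and was not called in CD45+ precursors. In c-Kit+ cells under the same rule it changed by -0.58 between IACS-70654 and vehicle and was called. Alas1, the first enzyme of heme synthesis, rose from 501 and 543 to 902 and 825 CPM. Of 12 tested heme synthesis genes it was the 1 that rose, 1 fell (Abcb10, -0.69) and 10 were not called, with a median of -0.19. Tmsb10, encoding the actin-binding thymosin beta 10, changed by 1.16, and by 0.093 in the lowest of 19 alternatives. In the 6 libraries it had 0.944 to 2.76 UMIs per precursor and 5.26 to 7.98 per B cell. With B cells that high, the comparison cannot show a background level for Tmsb10. Anxa2 changed by 0.93.

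Of 53 tested G2/M genes, 3 rose and 0 fell between IACS-70654 and vehicle (Ube2c, Tmpo and Kif20b), 6 rose between vehicle and WT and 17 between IACS-70654 and WT, with medians of 0.15, 0.35 and 0.48. Over all genes tested, 1.62%, 1.21% and 2.36% rose in the same order. The calls of Tmpo, Kif20b and Ube2c against vehicle were lost in 8, 7 and 5 of 19 alternatives. The 43 tested S phase genes had a median of -0.18 between IACS-70654 and vehicle, and each missed the call. Pcna, the replication clamp, was 225 and 255 CPM under vehicle and 194 and 222 under IACS-70654. Of 15 tested genes of MHC class I and peptide loading, 6 were lower under IACS-70654 than in WT, beside 3.71% of all genes tested. H2-K1 was 295 and 290 CPM in WT, 246 and 254 under vehicle and 182 and 200 under IACS-70654, and only Psmb9, an immunoproteasome subunit, was called against vehicle, at -0.58. Crebbp and Ep300, which encode CBP and P300, were not called, with log2 changes of 0.29 and -0.06.

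The 25 tested ribosome biogenesis genes, which serve growth, had a median log2 change of 0.22 between IACS-70654 and vehicle and each missed the call, as did 18 glycolysis genes, with a median of 0.08, and 19 genes of acetyltransferases, readers and erasers, with a median of -0.07. Of 22 folding and secretory genes 2 fell, Sec61b of the translocon and Ssr4 of its associated complex. Of 21 tested interferon response genes 3 rose and 1 fell, with a median of 0.28. Of 12 granulocyte-monocyte progenitor genes 1 rose and 2 fell, with a median of -0.07. Over all genes tested, 1.62% rose and 3.54% fell. The few calls in the folding, interferon and progenitor lists are not read as traits of those lists.

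Between vehicle and WT, 5 of 22 tested specific and gelatinase granule genes rose and 1 fell, and 4 of 20 mature neutrophil genes rose. Over all genes tested, 1.21% rose and 0.866% fell. Lcn2 was 721 and 691 CPM in WT, 1778 and 1590 under vehicle and 1794 and 1807 under IACS-70654, a log2 change of 1.30 for vehicle against WT (SE 0.076, edgeR adjusted p = 1.3e-16). Per cell, Lcn2 stood at 9.15 and 9.77 UMIs in WT precursors and 23.7 and 20.6 under vehicle. B cells held 4.49 and 6.29 in WT and 9.725 and 8.55 under vehicle. Lcn2 is also part of the specific granule share, so its change on each side of that threshold is not read. Pim1, a kinase induced by cytokine receptors, was 29.7 and 36.8 CPM in WT and 97.1 and 109 under vehicle, a change of 1.65. Its WT level was below that of B cells per cell, and whether that B-cell level was background was not tested. Cd177, a neutrophil surface glycoprotein, changed by 1.18, and Csf2rb, the shared beta chain of the GM-CSF receptor, by 1.04. The call of Csf2rb was lost in 5 of 19 alternatives and that of Cd177 in 0. Of 22 tested folding and secretory genes 4 rose, among them Hspa5, the chaperone BiP, from 471 and 441 to 637 and 660 CPM. The 10 largest falls included Olfm4 (-0.96), Kcnq5 (-1.08), Zfp704 (-0.88) and Wwox (-0.85). Their calls were lost in 4, 4, 5 and 0 of 19 alternatives, and the smallest change of Zfp704 was -0.087. Kcnq5 stood below B cells per cell in the 6 libraries, at 0.392 to 1.58 UMIs against 3.11 to 5.91. At such a B-cell level, the comparison cannot show whether Kcnq5 in precursors was background. Myb, a factor of proliferating progenitors, changed by -0.58.

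To place the response, the precursors were compared with 3206 cells of the same CD45+ libraries that had under 1% azurophil RNA, at least 1% specific granule RNA and at least 2 UMIs of Mki67 and Top2a. In a test of the difference in response to IACS-70654 against vehicle, 159 of 11606 genes differed (1.37%), 76 with the more positive change in the azurophil-high precursors. Anxa1 changed by 1.44 in the precursors and by -0.26 in the cycling cells, a difference of 1.74 (edgeR, called). S100a8 changed by 0.51 and -0.23, a difference of 0.78, and Chil3 by 1.63 and 0.57, a difference of 1.105. Stefins differed the other way, Stfa3 by -2.56, Cstdc4 by -2.12 and Cstdc5 by -0.73, where Stfa3 in both IACS-70654 libraries and Cstdc4 in 1 of them were not above B cells in the precursors. Fcnb changed by -1.995 and -1.24, a difference of -0.71. Cst7 changed by -2.16 and -1.32, and that difference was not called.

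**Figure D5:**
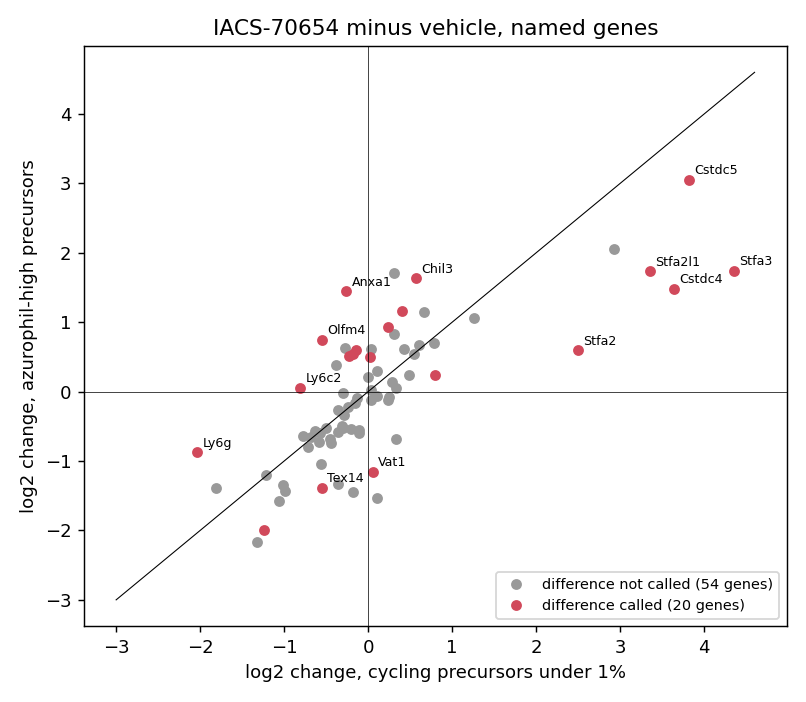
Log2 change between IACS-70654 and vehicle in azurophil-high precursors (vertical) against that in cycling precursors under 1% azurophil RNA (horizontal) for 74 named genes, with the line of equal change. The difference was called for the 20 genes in red, with Anxa1 and Chil3 above the line and Stfa3, Cstdc4, Stfa2l1 and Stfa2 below it.

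The same rule in the c-Kit+ libraries gave 239 genes higher (2.11%) and 363 lower (3.2%) of 11335 between IACS-70654 and vehicle. Of the 483 genes called in CD45+ precursors, 437 were tested in both, and 159 were called in the same direction in c-Kit+ cells and 3 in the opposite one. Anxa1 was 68.7 and 71.7 CPM under vehicle and 217 and 220 under IACS-70654 there. Napsa and Aoah changed by -1.17 and -1.44 and Cd63 and Nkg7 by -0.92 and -1.28, all called. Gfi1 and Kit were not called, at -0.18 and 0.34.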

How the data were processed

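The authors made the raw UMI count per gene and cell with Cell Ranger, 7.2.0 per the marrow file headers, and assigned cells to libraries by CellPlex tags. The deposited count values carry no normalization. The submitters' processing notes name mm10 and Seurat. Members and gene lists were chosen with earlier results of these data known. The 6 CD45+ libraries had 4394 to 6154 eligible cells. UMIs of members, summed per library, entered 1 quasi-likelihood fit over the 6 libraries (edgeR 4.0.16, R 4.3.3) after filterByExpr and TMM scaling, with Benjamini-Hochberg adjustment over all genes. DESeq2 1.42.0 was an alternative. CPM scale the summed UMIs of each library to the same total. Shares were compared by exact two-sided permutation over libraries in scipy 1.17.1. Phases followed the Seurat scoring rule after thinning to 5000 UMIs, which 1160 of 1191 cells allowed. Named genes were the rule genes, the 10 largest called rises and falls per comparison with a mean of at least 50 CPM and no overlap, up to 4 called genes per list and direction or the most abundant, genes the study names and 8 fixed regulators. Predicted, mitochondrial and ribosomal protein genes were left out of the largest changes. In simulated counts for IACS-70654 against vehicle, 10.5%, 80% and 95.5% of 200 genes changed by 0.5, 1 and 2 (log2) were recovered among 9354. The doublet caller of scanpy 1.11.5 marked no member and under 0.5% of cells in 5 of 6 libraries, so it had not worked. The tumor libraries were not used here. Some genes that the rule names are not reported here.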

Additional observations from a re-analysis of the deposited data

Results flagged for a closer look

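The share of cells under the azurophil rule moved in opposite directions in the 2 sorts between IACS-70654 and vehicle, up in both IACS-70654 libraries of CD45+ marrow and down in both of c-Kit+ marrow. The log2 ratios differed by 1.96, and this difference was not tested.

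Between the azurophil-high precursors and the cycling precursors under 1% azurophil RNA, 159 genes differed in their response to IACS-70654 against vehicle by the interaction test. Among those described above, the difference was 1.74 for Anxa1, 1.105 for Chil3, 0.78 for S100a8, -0.73 for Cstdc5 and -2.56 for Stfa3.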

How the results depend on the processing

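Values with 2 libraries per group are limited by that number. The log2 ratio of shares of IACS-70654 to vehicle became 1.51 at an azurophil share of at least 2% and 1.61 with no monocyte gene limit, and that to WT 0.92 after thinning, 1.58 with no monocyte gene limit and 0.89 over cells without lymphoid genes. For vehicle against WT it was 0.083, and became -0.31 after thinning and -0.16 without lymphoid cells. Leaving out 1 library gave -0.14 to 0.35 for vehicle against WT, 1.16 to 1.40 for IACS-70654 against vehicle and 1.13 to 1.62 against WT. At a specific granule threshold of 5%, the differences in specific granule-positive cells were 0.42, -8.23 and -7.81 points (vehicle against WT, IACS-70654 against vehicle and against WT), and leaving out 1 library gave 0.64 to 6.55, -20.1 to -14.2 and -15.6 to -11.6. In specific granule-negative precursors alone, the G2/M differences were -0.20, 17.9 and 17.7 points and the S differences 12.4, -14.9 and -2.44. Leaving out 1 library gave G2/M differences of 1.13 to 6.56, 9.18 to 12.2 and 11.8 to 17.2, and S differences of -0.29 to 4.28, -13.3 to -8.72 and -10.2 to -7.85.

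Counts of called genes (194, 483 and 568 in the same order) fell to 80, 161 and 228 with DESeq2, 102, 305 and 310 after thinning, and 75, 276 and 328 in specific granule-positive precursors, the last chosen after seeing the data. Vehicle against WT fell to 63 at an azurophil share of at least 2% and 109 in specific granule-negative precursors. Leaving out 1 library gave 91 to 223, 315 to 493 and 311 to 591, lowest without WT replicate 2 (91 and 311) and without either vehicle replicate (315 and 317). In c-Kit+ libraries it gave 72 to 164, 373 to 589 and 134 to 380 against 135, 602 and 350, lowest without WT replicate 1 (72 and 134; 74 without WT replicate 2) and vehicle replicate 1 (373). The difference in response of vehicle against WT went from 37 genes to 24 with a comparison class of at least 5 UMIs. With the replicate block the counts were 238, 525 and 618, and 139, 600 and 357 in c-Kit+ libraries. Replicate numbers did not pair the libraries (correlations of deviations -0.050, -0.033 and 0.087). The sign turned for Camp against WT in specific granule-negative precursors (0.22), Ebf1 against WT without WT replicate 2 (-2.64 to 0.88 over left-out libraries), Ifitm6 at 2% (-0.028) and Manf in specific granule-positive precursors (-0.029) for vehicle against WT, and for Stfa2 (-0.25) and Wfdc17 (-0.31) against vehicle without the top 10% of doublet scores, also chosen after seeing the data. The turn of Camp is not read, since Camp itself decides which cells are specific granule-negative. The causes were not tested. Fcnb, Cst7, Anxa1, Chil3 and Cstdc5 stayed called between IACS-70654 and vehicle under all alternatives tried. Kit was lost under 9 of them. Leaving out called doublets, 1 of the 19 alternatives, removed no precursor, so it could change no call.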
